A study of Mus musculus with 2 samples.

Results

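The nuclear-encoded subunits of the mitochondrial respiratory chain and of ATP synthase, with their named assembly factors, were compared between fetal palates of 2 genotypes. Members were the probe sets annotated to a single gene whose symbol starts with Nduf, Sdha, Sdhb, Sdhc, Sdhd, Uqcr, Cox4, Cox5, Cox6, Cox7, Cox8 or Atp5. This gave 185 of the 45101 probe sets, for 94 of 18193 genes. A further 10 probe sets that also name another gene were left out. Each genotype has 1 array of total palate RNA: the first is labelled Myf5-/-:MyoD-/- and is called here the array labelled double null, and the second is wild type. Both RNAs are from BALB/c fetuses at stage E18.5. MyoD (gene symbol Myod1) and Myf5 are the basic helix-loop-helix factors that commit cells to skeletal muscle, and the series asks what skeletal muscle contributes to palate development. The labels give neither the part of each gene that was removed nor the number of fetuses behind each RNA. With 1 array per genotype there is no replicate and no test, and the number of arrays limits the precision, so every ratio below describes these arrays only.

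The respiratory chain passes electrons from NADH (complex I) and succinate (complex II) through coenzyme Q to complex III, and from there through cytochrome c to complex IV, cytochrome c oxidase, which reduces oxygen. Proton pumping by complexes I, III and IV drives ATP synthase. Most subunits are made in nearly every cell type. A few subunits of cytochrome c oxidase have a form made mainly in heart and skeletal muscle, and Cox7a1 and Cox8b are also found in brown fat. These muscle forms largely replace the widespread ones as muscle matures.

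Signals are MAS5 values after a common scaling of the arrays, and each ratio is a log2 value with the array labelled double null on top and wild type below. A gene was represented by its brightest probe set. A gene was called measured if the higher of its signals was at least 658, the 60th percentile, and values under 287, the 40th percentile, were set to that floor. Of the 94 genes 86 were measured, all of them above the floor on both arrays. The 8 others were Ndufb1, Ndufb4, Cox4i2, Cox6b2, Cox7a1, Cox7b2, Cox7c and Cox8b. Probe sets differ in how strongly they bind, so signals are compared between arrays and not between genes.

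Some facts of the arrays bear on every result here. Myod1 had 1663 in its measured probe set on the array labelled double null and 1938 on the wild-type array, and the Myf5 probe set, which did not reach the measured level, had 531 and 517. The targeted genes thus did not separate the arrays, and whether their probes lie in deleted sequence is not known here. Skeletal muscle fibre markers were lower on the array labelled double null in 18 of 18 measured genes of 19 listed, with a summed signal of 123029 against 233939 and a median log2 ratio of -0.95, and Acta1, skeletal actin, still had 23430 against 38283. Neuron markers were higher in 10 of 10 measured genes, with a sum of 128581 against 59505. Epithelium markers were lower in 7 of 9 measured genes (sum 92386 against 126930), and macrophage markers in 4 of 5 (33718 against 39469). The part of these cell types in the ratios below was not tested. The Y-linked Eif2s3y had 2794 against 10.8, and Xist, transcribed from the inactive X chromosome, had 16947 against 33813 in its brightest probe set. In RNA from whole palate, fewer cells of a type and less RNA per cell cannot be told apart.

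The family as a whole lay close to the centre of all genes. The 86 measured genes had a median log2 ratio of 0.11, with a range from -1.11 to 0.59, beside a median of 0.071 over all 11238 measured genes. This sign is not stable, since the family median was -0.034 when the arrays were scaled on reference genes, -0.041 after quantile normalization and -0.086 after centring on genes of like signal. Below 0 lay 28 of the 86 genes, where 43.7% of all measured genes did. At least 2-fold lower were 2 genes, Ndufv2 and Sdhaf1, where 4.22% of all measured genes were, and none was at least 2-fold higher, where 3.51% were (7.72% either way). Within 1.5-fold lay 82 of the 86 genes (95.3%), against 75% of all measured genes. The members are bright, and bright genes varied less. Of all 3193 measured genes in the middle signal range of the members (3943 to 31743), 82.7% lay within 1.5-fold. Of the 42 members there, 95.2% did. In that range 1080 of the 3193 genes and 14 of the 42 members lay below 0. At least 2-fold lower there were 64 of the 3193 genes and 1 of the members, and at least 2-fold higher 78 and 0.

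**Figure D1:**
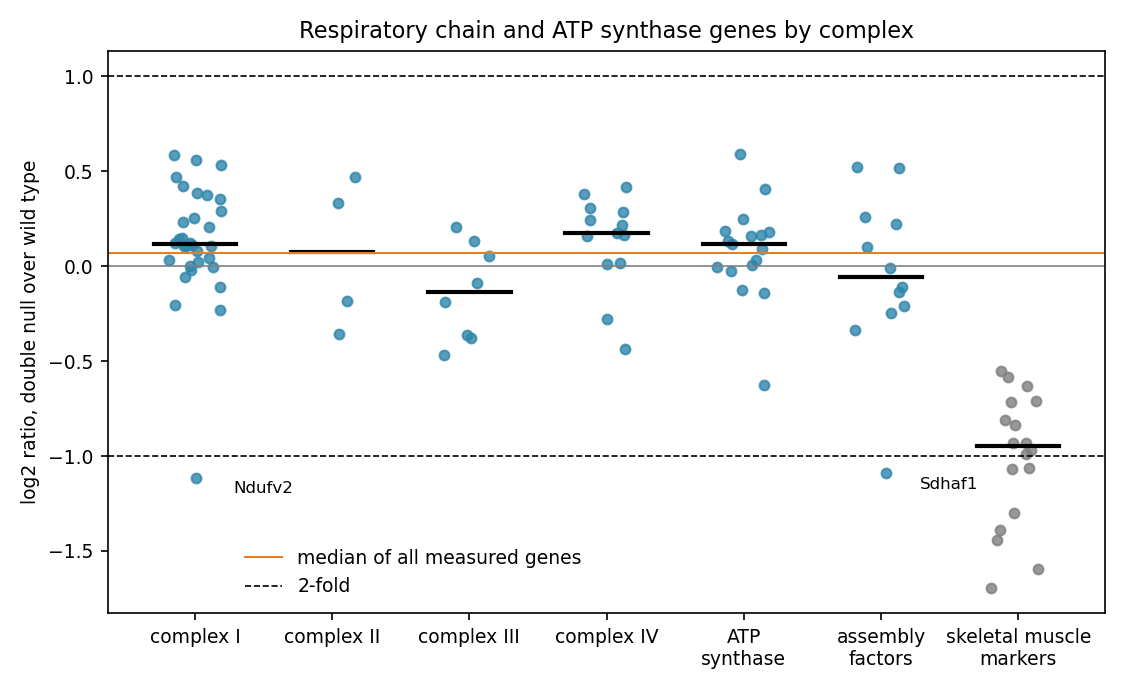
Each point is a measured gene, placed by its complex on the horizontal axis and by its log2 ratio (array labelled double null over wild-type array) on the vertical axis, and the black bars are medians. The complex medians lie between -0.14 and 0.18, with Ndufv2 and Sdhaf1 past the dashed 2-fold lines, and all 18 measured skeletal muscle markers in the last column lie below 0.

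Over all genes the ratio was higher at higher signal, and the members are bright. The median log2 ratio of all measured genes was 0.0066 for genes with a mean log2 signal from 10 to 11, 0.11 from 12 to 13 and 0.25 above 15. The 21 members above 15 had a median of 0.21, and the 16 members from 13 to 14 had 0.13 where all genes had 0.18. Relative to genes within 0.5 of their own mean log2 signal, the median of the 86 members was -0.086, that of complex I -0.061, of complex II -0.0093, of complex III -0.31, of complex IV -0.028, of ATP synthase -0.10 and of the assembly factors -0.067. The sign of every complex median except that of complex III and of the assembly factors thus changed once signal was taken into account.

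**Figure D2:**
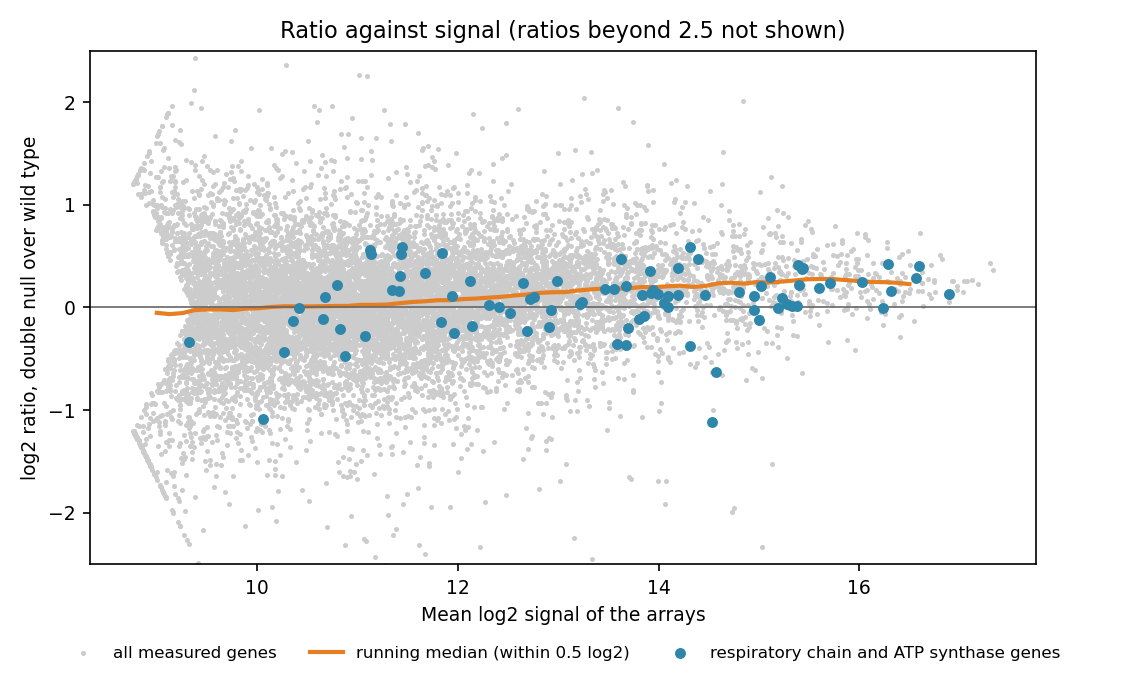
Each grey point is 1 of the 11238 measured genes and each blue point 1 of the 86 measured members, with the mean log2 signal of both arrays on the horizontal axis and the log2 ratio (array labelled double null over wild-type array) on the vertical axis. The running median climbs with signal, to 0.25 for genes above 15, and most members lie near it, while ratios beyond the axis are not drawn.

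Of the muscle isoforms of cytochrome c oxidase, only Cox6a2 gave a measured signal in these palates. Cox6a2 encodes the heart and muscle form of subunit VIa, and its brightest probe set had a signal of 1954 on the array labelled double null and 2367 on the wild-type array, a log2 ratio of -0.28 or 1.21-fold lower. Its ratio was below 0 in all 12 other settings that were tried, from -0.42 to -0.26. Floors, filters and the choice of probe set left it unchanged, so only the other scalings, the offset and centring could move it. A second probe set went the other way, with 559 against 138, at least 1.95-fold higher. That probe set was below the measured level, and its suffix marks possible cross-hybridisation. Cox6a1, the widespread form, had 58246 against 49293 in its brightest probe set (0.24) and 8835 against 8221 in its other one (0.10). The Cox6a2 log2 ratio minus that of Cox6a1 was -0.52, and -0.26 after centring on genes of like signal, where Cox6a1 itself was at -0.042. Probe sets that share a gene had a pooled SD of 0.515 in their log2 ratios over all genes and 0.255 over member genes. These are spreads of single ratios and not of a difference between genes.

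Cox7a1, the muscle form of subunit VIIa, was under the floor on both arrays, with 271 on the array labelled double null and 270 on the wild-type array. No fold is given for it. Its widespread partner Cox7a2 had 46710 against 40131 in its brightest probe set (0.22, and -0.028 after centring on genes of like signal) and 14524 against 15926 in its other one (-0.13). Cox8b, the muscle form of subunit VIII, had 467 against 444, above the floor and below the measured level, with a log2 ratio of 0.075 that was -0.068 with scaling on reference genes. Cox8a, the widespread form, had 3058 against 2473 (0.31) and 2279 against 1695 (0.43) in its measured probe sets. Cox6a2, Cox8b and the widespread partners were each within 2-fold in their brightest probe sets. Of the 18 measured muscle fibre markers 11 were also within 2-fold and 7 were at least 2-fold lower, where 4.22% of all measured genes were. The lowest ratios were those of Tnnc2, fast troponin C, with 9596 against 31028, and Pgam2, muscle phosphoglycerate mutase, with 1114 against 3370. The marker Tnni2 had 4020 against 7054 in its brightest probe set and 4819 against 4832 in its other measured one. Ckmt2, the mitochondrial creatine kinase of striated muscle, had 1183 against 1941.

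**Figure D3:**
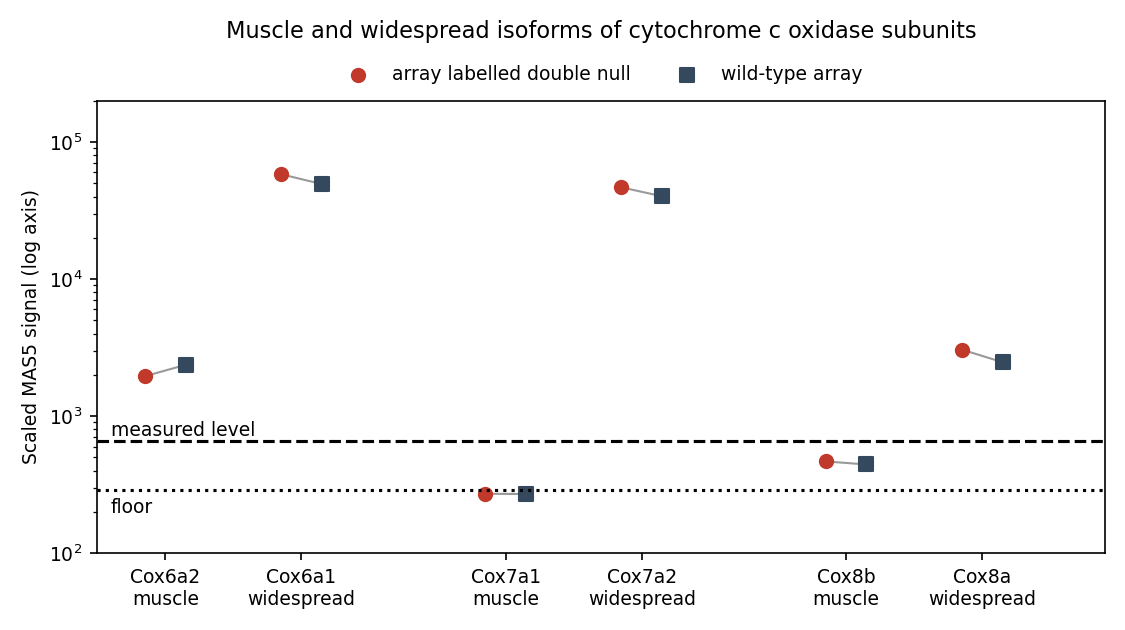
The scaled MAS5 signal (log axis) of each muscle isoform and its widespread partner is shown on the array labelled double null (circles) and the wild-type array (squares), with 1 array per genotype and the floor and the measured level as lines. Cox6a2 is lower on the array labelled double null (1954 against 2367), Cox7a1 lies under the floor and Cox8b under the measured level on both arrays, and heights of different genes are not comparable.

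Cox7a1 and Cox8b are also forms of brown fat, whose markers were partly dim. Ucp1, the uncoupling protein, and Elovl3 were under the floor on both arrays, and Cidea had 266 against 376. The other 3 of the 6 listed markers were measured. Prdm16, a determination factor of brown fat, had 4735 against 2306, or 2.05-fold higher, and its other probe sets did not reach the measured level. Dio2 had 2134 against 2109, and Zic1 had 1284 against 1374 and, in its other probe set, 466 against 1187. Summed signals over all 6 markers were 8686 against 6573. Prdm16 held 4735 against 2306 of these sums, so the higher sum reflects that gene and not the list as a whole. Heart also makes these isoforms. Of its 8 listed markers Myh6, Myl7, Nppa and Nppb were under the floor on both arrays, and Tnni3 had 140 against 395. The 3 measured ones were all lower, Myl4 with 4564 against 6474, Sln with 1229 against 1932 and Myl3 with 724 against 775. Their median log2 ratio was -0.50, and the list summed to 7441 against 10143. Whether these 3 signals come from heart-type or from skeletal muscle was not tested. The part of brown fat and of heart-type muscle in the isoform values was not tested.

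The promoter windows of these isoforms are printed to show how the muscle and widespread genes differ in sequence. They are RefSeq sequences of build GRCm38.p6 and run from 250 bases before to 50 after the gene start, written 5′ to 3′ on the gene's strand. Capitals mark matches, on either strand, to the letters of 6 motifs known from respiratory chain or muscle genes: CCGGAAG for GABP and other ETS factors, AAGATGG for YY1, AAGGTCA for the ERR receptors, CAGCTG for the E-box of muscle genes, and the longer consensus sites of NRF1 and MEF2. No matches overlap in the windows shown. Cox6a2 had no window here. The windows lie at chr5:115348909-115349208, minus strand for Cox6a1, chr19:7217567-7217866, minus strand for Cox8a, chr7:140900397-140900696, minus strand for Cox8b, chr7:30183921-30184220, plus strand for Cox7a1 and chr9:79759804-79760103, minus strand for Cox7a2.
Cox6a1: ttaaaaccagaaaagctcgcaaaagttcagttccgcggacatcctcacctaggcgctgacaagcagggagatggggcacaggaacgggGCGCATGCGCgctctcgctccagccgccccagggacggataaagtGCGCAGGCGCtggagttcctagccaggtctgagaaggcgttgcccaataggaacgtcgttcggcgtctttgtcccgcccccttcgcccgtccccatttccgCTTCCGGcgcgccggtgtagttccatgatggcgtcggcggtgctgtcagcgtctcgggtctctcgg
Cox8a: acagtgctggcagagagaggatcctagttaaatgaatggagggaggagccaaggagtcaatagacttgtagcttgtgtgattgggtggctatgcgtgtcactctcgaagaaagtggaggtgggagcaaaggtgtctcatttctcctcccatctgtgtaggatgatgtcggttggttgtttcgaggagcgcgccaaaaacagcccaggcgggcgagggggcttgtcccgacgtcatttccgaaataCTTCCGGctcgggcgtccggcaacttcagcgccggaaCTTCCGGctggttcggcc
Cox8b: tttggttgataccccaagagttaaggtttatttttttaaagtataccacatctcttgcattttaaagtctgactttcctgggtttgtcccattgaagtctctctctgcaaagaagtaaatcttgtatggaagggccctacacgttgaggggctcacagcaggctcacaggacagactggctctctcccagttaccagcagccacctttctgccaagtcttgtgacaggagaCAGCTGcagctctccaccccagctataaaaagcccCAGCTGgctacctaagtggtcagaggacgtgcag
Cox7a1: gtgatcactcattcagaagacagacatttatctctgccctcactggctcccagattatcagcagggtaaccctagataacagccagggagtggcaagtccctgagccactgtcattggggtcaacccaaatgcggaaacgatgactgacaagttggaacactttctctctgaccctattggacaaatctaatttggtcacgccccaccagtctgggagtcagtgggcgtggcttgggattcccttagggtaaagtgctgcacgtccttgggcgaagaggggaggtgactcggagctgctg
Cox7a2: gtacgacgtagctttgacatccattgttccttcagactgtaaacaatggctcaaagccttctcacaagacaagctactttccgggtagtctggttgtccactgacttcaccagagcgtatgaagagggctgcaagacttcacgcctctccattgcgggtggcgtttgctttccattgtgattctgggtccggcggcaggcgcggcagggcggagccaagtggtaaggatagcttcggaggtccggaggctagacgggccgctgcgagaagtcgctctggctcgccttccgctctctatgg
The Cox6a1 window held 2 matches to NRF1, at bases 89 to 98 and 134 to 143, and 1 to GABP, at bases 235 to 241. In the Cox8a window GABP matched at bases 246 to 252 and 283 to 289. The window of the muscle isoform Cox8b held the E-box of muscle genes at bases 232 to 237 and 267 to 272. Cox7a1 and Cox7a2 held none of the 6 motifs, which says only that these letters are not in these windows.

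Over the family, 78 of the 94 genes had a window, 83 windows in all. NRF1 letters were found in 20 of the 83 windows (24.1%), where 9.61% of the windows of all measured genes and 4.6% of all 32851 windows held them. GABP letters were found in 26.5%, against 16.3% for measured genes and 8.86% for all. For YY1 the shares were 13.3%, 6.76% and 6.34%, and for ERR 9.64%, 3.03% and 4.72%. The E-box of muscle genes went the other way, with 7.23% of member windows against 15% for measured genes and 16.3% for all, and MEF2 letters were in 2.41%, 3.24% and 3.69%. Ratios of members with and without a motif were also set side by side, with no test. The 18 measured members with NRF1 letters had a median log2 ratio of 0.11 and the 53 without had 0.11. For GABP the medians were 0.020 over 22 genes with and 0.12 over 49 without, and for YY1 0.11 over 10 and 0.11 over 61. The ERR medians were 0.25 over 7 genes with and 0.10 over 64 without. Those for the E-box of muscle genes were 0.0019 over 5 and 0.12 over 66, and for MEF2 0.19 over 2 and 0.11 over 69. A match is a description of the letters and not a bound site.

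**Figure D4:**
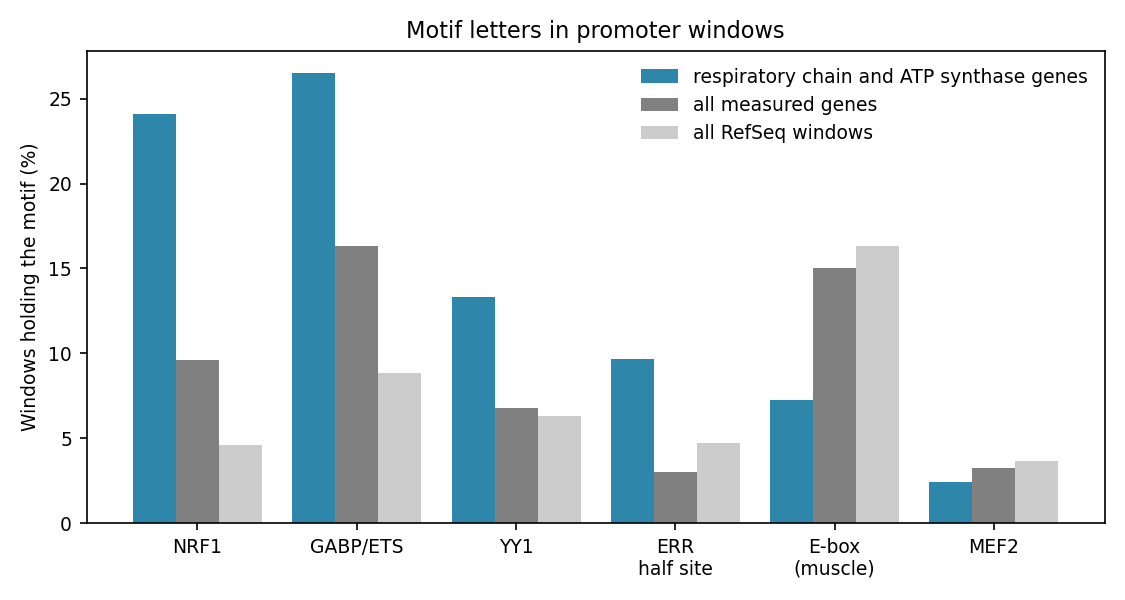
Bars give the percent of promoter windows that hold the letters of each motif on either strand, for the 83 windows of respiratory chain and ATP synthase genes, for windows of all measured genes and for all RefSeq windows. The share for NRF1 is 24.1% in the family against 9.61% of the windows of measured genes, and that for the E-box of muscle genes is 7.23% against 15%.

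In complex I, which oxidises NADH, 32 of 34 genes were measured and 7 lay below 0, with a median of 0.11 that was -0.061 after centring on genes of like signal. The 6 core subunits of the peripheral arm had a median of 0.011, or -0.13 relative to genes of like signal. Among them Ndufv1, which holds the NADH site, had 30098 against 27201 (0.15), and Ndufs1, the largest core subunit, had 5737 against 5970 (-0.058). Ndufv2, an iron-sulphur subunit, was the 1 complex I gene past 2-fold, with 16150 on the array labelled double null against 34961 on the wild-type array, or 2.16-fold lower. That value comes from a probe set whose suffix marks possible cross-hybridisation. The other Ndufv2 probe sets had 22924 against 23483 (-0.035) and 6248 against 8190 (-0.39), so the gene was below 0 in all 3 and past 2-fold in 1.

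The 26 measured accessory subunits of complex I, which surround the core, had a median log2 ratio of 0.13, and 22 of them lay above 0. Relative to genes of like signal their median was -0.0080. Ndufb6 had the highest ratio, with 24853 against 16574 (0.58), and its other probe set had 10416 against 7341 (0.50). Ndufs5 had 2720 against 1843 (0.56). Ndufa7 was above 0 in all 5 of its probe sets, from 0.078 to 0.87. Ndufab1, the mitochondrial acyl carrier protein, had the lowest ratio of the accessory subunits, with 6102 against 7171 (-0.23), and another of its probe sets had 0.49. Ndufa1 and Ndufb11, both on the X chromosome, had 92885 against 69277 (0.42) and 40274 against 39307 (0.035), beside the sex-linked differences given above, whose part in these values was not tested. Ndufb1 had 488 against 294, and Ndufb4 was under the floor on both arrays.

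Complex II, succinate dehydrogenase, has 4 subunits and all were measured. Sdha, which holds the flavin, had 25405 on the array labelled double null against 18322 on the wild-type array (0.47), but its other measured probe set had 13065 against 13961 (-0.096). Sdhb, the iron-sulphur subunit, had 10847 against 13911 (-0.36). The membrane anchors also split, Sdhc with 3674 against 2916 (0.33) and Sdhd with 4248 against 4829 (-0.18), and second probe sets of both had the same sign (0.47 and -0.21). The subunits of the complex were thus not all on the same side of 0.

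Complex III, which passes electrons to cytochrome c, had a median of -0.14 over its 8 genes, and 5 of them lay below 0. Its median was below 0 under all 12 other settings, from -0.31 to -0.14. Floors and filters left it unchanged, so only the other scalings, the offset, the choice of probe set and centring could move it. Complexes I, II and IV and ATP synthase each had medians on both sides of 0. Whether complex III differs from the others was not tested. Uqcr10, a small membrane subunit, had 1600 against 2217 (-0.47) in its brightest probe set, whereas its dimmer ones, both below the measured level, had 637 against 436 and 634 against 220, the last at least 2.21-fold higher. Uqcrh, the hinge protein that touches cytochrome c1, had 17862 against 23246 (-0.38), and its other probe set had 7086 against 8229 (-0.22). Uqcr11 had 11562 against 14870 (-0.36), Uqcrc1, a core protein, 7208 against 8227 (-0.19) and Uqcrfs1, the Rieske iron-sulphur protein, 14397 against 15283 (-0.086).

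The other complex III genes lay above 0 here, but the brightest probe sets of all 3 lay below 0 after centring on genes of like signal (Uqcrc2 -0.032, Uqcrb -0.10 and Uqcrq -0.11). Uqcrc2, the second core protein, had 35717 against 30948 (0.21), Uqcrb 127483 against 116248 (0.13) and Uqcrq 9848 against 9489 (0.054). The other measured probe set of Uqcrb had 16246 against 11736 (0.47), and that of Uqcrc2 had a log2 ratio of 0.026. Cyc1, the cytochrome c1 subunit whose symbol falls outside the family prefixes, had 22982 against 22602 (0.024). Uqcc3, an assembly factor of complex III, was 2.21-fold lower, with 2330 against 5145 in its only probe set.

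In complex IV 13 of 19 genes were measured, with Ndufa4 placed here because it is a subunit of this complex. The median was 0.18, or -0.028 after centring on genes of like signal, and only Cox8c and Cox6a2 lay below 0. Cox5a and Cox5b, widespread subunits, had 49650 against 37172 (0.42) and 86237 against 77345 (0.16), and all 3 measured probe sets of Cox5a were above 0. Cox6b1, which faces the intermembrane space, had 106905 against 87634 (0.29), Cox6c had 50739 against 38927 (0.38), and Cox4i1, the regulatory subunit IV, had 41417 against 40927 (0.017, and -0.25 after centring on genes of like signal). Cox7a2l, which links complexes III and IV into supercomplexes, had 42789 against 42498 (0.0098).

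Forms of complex IV subunits restricted to other tissues were mostly dim. Cox4i2, the form of lung, was under the floor on both arrays, as was the testis form Cox7b2. Cox6b2, another testis form, had 386 against 410. Cox8c, the testis form of subunit VIII, was measured with 1058 against 1432 (-0.44). Its other probe set, under the measured level, went the other way with 300 against 133, the latter under the floor. Ndufa4l2, a paralogue of Ndufa4 that responds to low oxygen, had 2760 against 2462 (0.16), beside 12046 against 10670 for Ndufa4 (0.18). Set against their widespread partners, the log2 ratio of Cox8c minus that of Cox8a was -0.74, that of Cox6b2 minus Cox6b1 was -0.38 and that of Ndufa4l2 minus Ndufa4 was -0.011. Outside the muscle isoforms, only Cox8c and Ndufa4l2 were measured restricted forms, and the larger gap was that of Cox8c, in its brightest probe set. After centring on genes of like signal Cox8c was at -0.45 and Cox8a at 0.26, and Ndufa4l2 was at 0.14 and Ndufa4 at -0.0081. Cox6b2 was below the measured level, and the part of signal in its gap was not tested. Cox7c, a widespread subunit, had 529 against 569 in its brighter probe set and did not reach the measured level.

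ATP synthase had all 17 genes measured, with a median of 0.12, or -0.10 after centring on genes of like signal, and none past 2-fold. The catalytic head and central stalk (Atp5a1, Atp5b, Atp5c1, Atp5d and Atp5e) had a median of 0.0057, or -0.20 relative to genes of like signal. Atp5b, the catalytic beta subunit, had 31475 against 32030 (-0.025). Atp5a1, the alpha subunit, had 72761 against 61262 (0.25) in its brightest probe set, but 22560 against 34290 (-0.60) and 1695 against 2582 (-0.61) in the others. The peripheral stalk genes Atp5h, Atp5j, Atp5o and Atp5pb ran from -0.0044 to 0.19.

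The membrane parts of ATP synthase held its highest and lowest ratios. Of the genes for the proton-carrying c ring, which encode the same mature protein, Atp5g3 had 114003 against 86166 (0.40), Atp5g1 2881 against 2578 (0.16) and Atp5g2 3471 against 3829 (-0.14). Atp5l, subunit g, had the highest ratio, with 3420 against 2270 (0.59). Atp5md, a small subunit that helps hold the dimer, had the lowest, with 19578 against 30210 (-0.63, and -0.85 relative to genes of like signal). Atp5l and Atp5md have 1 probe set each among the members.

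Assembly factors, which build the complexes and are not part of them, had a median of -0.059 over 12 genes. Sdhaf1, needed to insert iron-sulphur clusters into Sdhb, was 2.13-fold lower, with 731 against 1558 in its only probe set. The other complex II factors were Sdhaf3 with 568 against 719 (-0.34), Sdhaf4 with 1683 against 1949 (-0.21) and Sdhaf2 with 1556 against 1680 (-0.11), so all 4 were below 0. Among the 8 complex I factors 5 were above 0, with Ndufaf1 at 3323 against 2312 (0.52) and Ndufaf7 at 2685 against 1878 (0.52) the highest and Ndufaf8 at 3663 against 4344 (-0.25) the lowest. A dimmer Ndufaf8 probe set had 399 against 674 (-0.75).

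Probe sets of the same member gene often differed. In the 44 member genes with more than 1 measured probe set, 108 probe sets in all, the pooled SD of log2 ratios within a gene was 0.255, whereas the SD between the 86 genes was 0.31. In 29 of the 44 genes (65.9%) all probe sets lay on the same side of 0, against 50.7% of the 4030 such genes on the arrays. The widest ranges were those of Ndufv2 (-1.11 to -0.035), Ndufs8 (-0.87 to 0.072 over 6 probe sets) and Atp5a1 (-0.61 to 0.25). Over all 150 measured member probe sets, 53 were below 0 and 2 at least 2-fold lower, those of Ndufv2 and Sdhaf1, where 4.52% of all measured single-gene probe sets were, and none was at least 2-fold higher, where 3.68% were (8.2% either way). The 35 others did not reach the measured level, among them 16 under the floor on both arrays. The shares over all measured single-gene probe sets were not matched for signal.

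**Figure D5:**
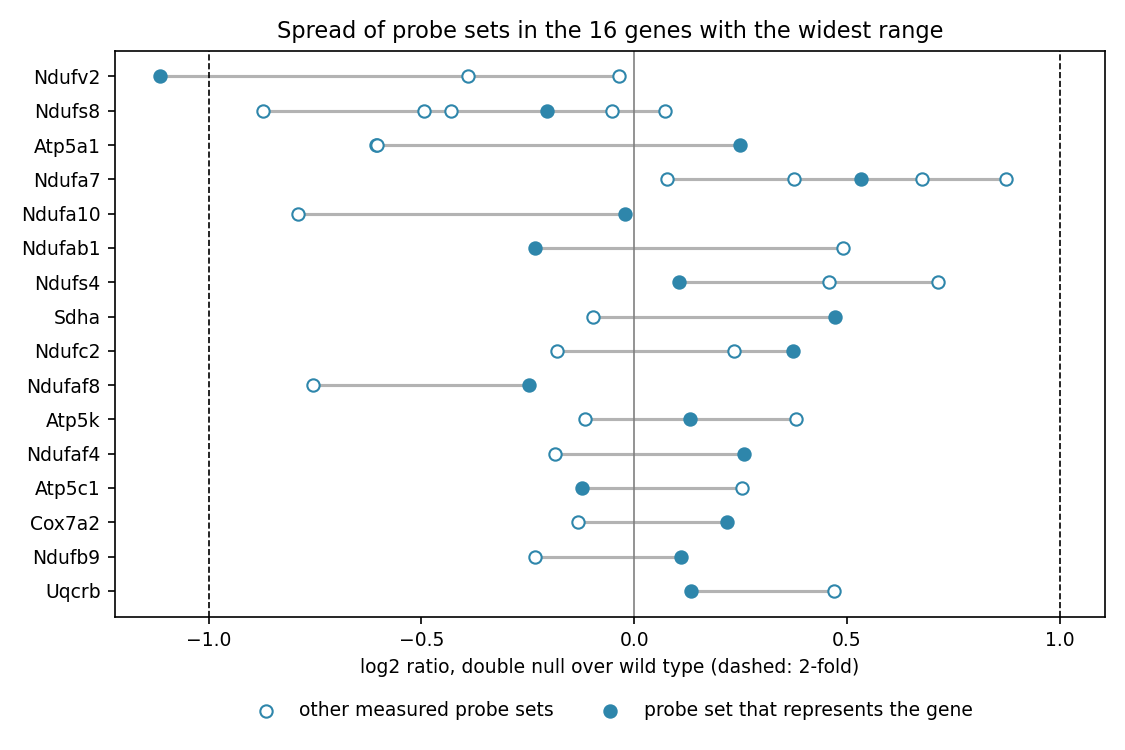
Each row is a member gene and each circle a measured probe set, placed by its log2 ratio (array labelled double null over wild-type array), with the probe set that represents the gene filled. The 16 genes with the widest ranges are shown, and Ndufv2 spans from -1.11 to -0.035 with 1 of its 3 probe sets past 2-fold.

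Other genes of the pathway gave like values. Of 39 symbols listed for electron carriers, assembly and regulation, 35 were found on the arrays, all outside the family prefixes, and 34 were measured. Their median was 0.0046. In brightest probe sets 1 was at least 2-fold lower (Uqcc3), where 4.22% of all measured genes were, and none at least 2-fold higher, where 3.51% were. Dimmer measured probe sets differed for Higd1a, a factor of complex IV and of supercomplexes, with 14928 against 5436 (2.75-fold higher) and 3129 against 852 (3.67-fold higher), where its brightest had 20740 against 21870. A second probe set of Uqcc2, an assembly factor of complex III, had 1820 against 3678 (2.02-fold lower), where its brightest had 4211 against 4212. Cox16, an assembly factor of complex IV, had 984 against 638 (0.62). Cycs, cytochrome c itself, had 37825 against 45489 (-0.27) in its brightest probe set, and its other measured ones had -0.80 and 0.46. The tricarboxylic acid cycle list had a median of 0.084 over 17 measured genes, none past 2-fold, where 7.72% of all measured genes were. In it Dlst had 2684 against 4437 (-0.73), and Cs, citrate synthase, had 41823 against 27279 (0.62) and -0.65 in its dimmest probe set.

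Regulators of mitochondrial gene expression had a median of 0.10 over 13 measured genes. None was past 2-fold in its brightest probe set, where 7.72% of all measured genes were. Polrmt, the mitochondrial RNA polymerase, had 2113 against 1510 (0.49) there but 1087 against 2523 (2.32-fold lower) in its other one. Polg, the mitochondrial DNA polymerase, had 898 against 1705 (-0.92) and Nrf1, nuclear respiratory factor 1, had 3347 against 1942 (0.79), while other measured Nrf1 probe sets had -0.48 and 0.75. Among 16 measured genes for channels, import and chaperones of mitochondria, the median was 0.062. At least 2-fold lower were 4.22% of all measured genes and 2 of the 16 genes here. These were Timm44, an import motor subunit, with 14065 against 54329, and Hspd1, the matrix chaperone, with 8686 against 18120 in its only probe set. Timm44 had 8122 against 3687 in another probe set, 2.20-fold higher, so its direction depends on the probe set.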

How the data were processed

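Palate RNA (6 µg a sample) was hybridised to Affymetrix arrays, per the labels' protocols. The deposited values are linear signal intensity values per probe set, which the authors computed with MAS5 according to their processing notes, per the labels; no version is named there. The 2% trimmed mean was 1500.01 on both arrays. The 64 control probe sets were left out. The platform annotation gave gene names: 34945 probe sets name 1 gene and 932 name several. All 94 member genes were found in RefSeq (GRCm38.p6).

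Arrays were scaled on the median of probe sets that reach the 50th percentile on each (factors 1.03 for the array labelled double null and 0.974 for wild type). A floor was set at the 40th percentile and log2 was taken. With 1 array per genotype no test was made, and 2-fold served as a rule of size. The members, lists, motifs and rule for named genes (muscle isoforms and partners, members past 2-fold, lowest, highest and brightest of each complex, members with a discordant probe set, restricted paralogues, the 2 largest ratios of each pathway list) were chosen with earlier results of these data known, and members named beyond it were chosen after their values were seen. Complexes were assigned by symbol. The steps were tested on simulated data. Analyses used Python 3.11.15, numpy 2.4.6, pandas 2.3.3 and matplotlib 3.10.9.

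The alternatives changed the scaling (as deposited, by quantiles, or on reference genes), the floor (other percentiles, none, or an offset of 100), the choice of probe set (their mean, or no cross-hybridising suffixes), the filter and the fold rule (1.5-fold). Centring on genes within 0.5 of the same mean log2 signal was added after seeing the data.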

Additional observations from a re-analysis of the deposited data

How the results depend on the processing

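The medians of all members, complexes I and II and ATP synthase changed sign with scaling. The median of complex IV stayed above 0 and those of complex III and the assembly factors stayed below 0 under the scalings tried, and complex IV fell below 0 only after centring. On the median ratio of reference genes the medians were -0.034 for all members, -0.028 for complex I, -0.068 for complex II, -0.28 for complex III, 0.033 for complex IV, -0.023 for ATP synthase and -0.20 for assembly factors. After quantile normalization they were -0.041 for all members, -0.0083 for complex I, 0.017 for complex II, -0.27 for complex III, 0.017 for complex IV and -0.057 for ATP synthase. Centring on genes of like signal, chosen after seeing the data, gave -0.086 for all members, -0.061 for complex I, -0.0093 for complex II, -0.31 for complex III, -0.028 for complex IV and -0.10 for ATP synthase. Complex II moved to -0.0011 with the deposited scaling and to -0.0052 with the mean over probe sets. Assembly factors moved to 0.10 when only genes past the 75th percentile counted, which left 9 genes, and complex IV to 0.075 with no filter on low values, which added 6 dim genes. The median of all measured genes moved from 0.071 to -0.080 on reference genes, a shift shared by the members. Apart from that alternative's own shift, the cause of these moves was not tested.

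The count at least 2-fold lower was 2, and it was 1 with an offset of 100 (Sdhaf1 at -0.996), with the mean over probe sets (Ndufv2 at -0.51) and without cross-hybridising suffixes (Ndufv2 at -0.035). With a 1.5-fold rule 3 genes were lower and 1 higher. No other setting changed either count. The gap between Cox6a2 and Cox6a1 kept its sign in all 12 other settings. That between Cox8b and Cox8a did so in the 10 in which Cox8b could be read. Scaling by a single factor shifts both genes of a pair alike and could not change a gap. Floors and filters also left the Cox6a2 gap at -0.52. It moved to -0.30 after quantile normalization, -0.50 with an offset of 100, -0.45 with the mean over probe sets and -0.26 after centring. The dimmer Cox6a2 probe set entered none of these values. No paired analysis was possible because each genotype has 1 array.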
